A study of Mus musculus with 14 samples.

Results

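H3K27ac was described at the genes of major histocompatibility complex (MHC) class I presentation in macrophages sorted from mouse brain tumours. The genes were B2m, Tap1, Tap2, Tapbp, Nlrc5, H2-K1, H2-D1, Erap1, Psmb8 and Psmb9, which are 10 of the 21887 protein-coding genes placed on a chromosome of the reference table. They were chosen by name as parts of this pathway and not by their values. All 10 were among the 13494 genes with an H3K27ac summit within 1 kb of a gene end in at least 3 of the 7 H3K27ac libraries, a condition met by 61.7% of protein-coding genes.

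The study treated NSG mice, an immunodeficient strain on the NOD background that has no mature T, B or NK cells. The brain of every mouse had been implanted with T387, a human glioblastoma. Treated mice received pracinostat, an inhibitor of histone deacetylases, by gavage at 30 mg/kg, although another passage of the labels gives 3 mg/kg. Both groups were dosed 4 times weekly over 3 weeks, starting on day 7 of tumour growth. DMSO mice received the solvent mixture alone, which held DMSO, PEG300, Tween-80 and PBS. CD11b+ cells, named tumour-associated macrophages in the labels, were sorted at the endpoint, and the age of the mice, their sex and the animal behind each library are not given there. CUT&Tag, in which an antibody brings a transposase to the chromatin it binds, gave 4 pracinostat and 3 DMSO libraries with H3K27ac antibody, and 4 pracinostat and 3 DMSO libraries with IgG, the background of the assay.

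MHC class I molecules display peptides from inside the cell to CD8+ T cells. Proteins are cut by the proteasome, whose immune form carries Psmb8 and Psmb9. The peptides are pumped into the endoplasmic reticulum by the Tap1 and Tap2 transporter, trimmed by Erap1, and loaded with the help of tapasin (Tapbp) onto a heavy chain (H2-K1 or H2-D1) paired with beta-2-microglobulin (B2m). Nlrc5 is the transactivator of class I genes and acts through the conserved SXY module of their promoters. Interferon raises the expression of most of these genes in macrophages and microglia, and H3K27ac marks active promoters and enhancers.

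Promoter sequence from RefSeq (GRCm38.p6, the assembly that mm10 names) matched 8 of the 10 genes; Tap2 and Nlrc5 had none in the table used. The stretches that follow are the promoters of the genes whose products form the class I complex, and the stretch between the diverging starts of Tap1 and Psmb9. They are shown because the summits nearest the gene starts lay on or beside them. Capitals mark matches, on either strand, to the interferon-stimulated response element core (GAAA, any 2 bases, then GAAA), an NF-kB site, the CCAAT box (CCAAT) and the half-site of the cyclic AMP response element (TGACG); the last of these and the CCAAT box are the letters usually given for parts of the SXY module. B2m was read on the plus strand of chr2:122147437-122147686, H2-K1 on the minus strand of chr17:34000348-34000597, H2-D1 on the plus strand of chr17:35262844-35263093, and the Tap1 and Psmb9 stretch of 225 bases on the plus strand, which is that of Tap1, of chr17:34187331-34187555.
B2m: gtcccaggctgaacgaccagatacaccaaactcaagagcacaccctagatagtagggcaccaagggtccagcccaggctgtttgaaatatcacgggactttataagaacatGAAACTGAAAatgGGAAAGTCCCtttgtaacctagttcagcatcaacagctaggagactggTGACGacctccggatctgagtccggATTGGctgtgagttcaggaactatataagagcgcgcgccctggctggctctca
H2-K1: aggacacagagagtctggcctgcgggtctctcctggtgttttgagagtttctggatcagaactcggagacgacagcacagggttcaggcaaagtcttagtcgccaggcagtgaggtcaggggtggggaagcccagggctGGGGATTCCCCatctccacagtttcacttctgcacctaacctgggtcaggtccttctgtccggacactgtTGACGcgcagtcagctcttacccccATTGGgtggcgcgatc
H2-D1: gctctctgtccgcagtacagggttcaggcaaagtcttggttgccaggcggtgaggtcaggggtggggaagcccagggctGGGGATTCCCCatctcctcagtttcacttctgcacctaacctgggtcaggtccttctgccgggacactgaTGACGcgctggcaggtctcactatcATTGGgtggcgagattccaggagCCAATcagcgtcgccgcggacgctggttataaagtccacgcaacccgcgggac
Tap1 and Psmb9: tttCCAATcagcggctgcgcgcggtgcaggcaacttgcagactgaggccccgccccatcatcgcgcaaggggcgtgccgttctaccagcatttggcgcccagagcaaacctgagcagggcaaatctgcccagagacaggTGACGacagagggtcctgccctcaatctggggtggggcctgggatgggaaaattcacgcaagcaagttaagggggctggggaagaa

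In B2m the response element core began 139 bases before the annotated start, the NF-kB match 126, the half-site 78 and the CCAAT box 53 bases before it. H2-D1 held the NF-kB letters from 171 bases before its start, with an overlapping match from 170, the half-site from 101, and CCAAT boxes from 76 and 53 bases. H2-K1 was read at the more upstream of its starts in the promoter table, position 34000347, which lies inside the gene span given below. It held the NF-kB letters from 111 and 110 bases before the start, the half-site from 41 and a CCAAT box from 16. The H2-K1 and H2-D1 promoters were alike over 177 aligned columns, of which 161 were identical (91.0%). The Tap1 and Psmb9 stretch held 1 CCAAT box and 1 half-site and no match to the interferon or NF-kB letters. Among the 8 promoters of 250 bases, 1 held the response element core (B2m), against 2.98% of 32851 promoters of 27025 genes. Only that exact core was sought, so promoters counted without it, H2-K1 and H2-D1 among them, may still hold looser forms of the element. The NF-kB letters were in 3 (B2m, H2-D1 and H2-K1), against 3.9% of all promoters. The CCAAT box was in 6, against 33.8%, and the half-site in 5, against 17.8%. Tap1 and Psmb9 are both in the last 2 counts with the same CCAAT box and the same half-site, read on opposite strands. These matches describe the letters of the reference assembly and show no binding. The letters of the NSG mice were not read.

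H3K27ac lists held 229609 to 289017 summits in the 4 pracinostat libraries and 208401, 53503 and 291042 in DMSO replicates 1, 2 and 3, while IgG lists held 2194 to 10186 summits with pracinostat and 9244 to 18517 with DMSO. The score of a summit is a −log10 significance value that grows with depth, so it was read only as a rank within its library. Each gene took its highest-scoring summit within 1 kb of either end, and its percentile among the 13494 ranked genes is given below, where 100 is the highest. DMSO replicate 2 stood apart: 65.3% of its summits shared its lowest score, against 15.2 to 25.1% in the other 6 H3K27ac libraries. In that library B2m and Tapbp tied, as did H2-K1, Tap1 and Psmb9. In such bulk samples fewer cells of a type and less signal per cell cannot be told apart. Markers of macrophages and microglia had a mean percentile between 64.6 and 78.7 in the pracinostat libraries and between 58.1 and 67.7 in the DMSO libraries, with 13 of 13 ranked. Of 8 neutrophil markers 6 were ranked, at a mean between 18.6 and 31.1 with pracinostat and between 32.5 and 47.7 with DMSO, and the defining markers Retnlg and Ly6g had no summit in any H3K27ac library. Of 9 lymphocyte markers 6 were ranked, at a mean between 20.6 and 37.1 with pracinostat and between 23.7 and 25.8 with DMSO. Cd8a had no summit. The part of these mixtures in the class I values was not tested.

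At B2m, the light chain that every classical class I molecule needs, H3K27ac was among the highest of the 10 genes in both groups. B2m lies at chr2:122147687-122153082 on the plus strand. Its percentiles were 95.0, 89.1, 92.4 and 80.8 in pracinostat libraries 1 to 4, against 80.6, 84.6 and 94.1 in DMSO libraries 1 to 3. All 7 values were above 80 and the groups overlapped. The means were 89.3 ± 6.19 with pracinostat and 86.4 ± 6.93 with DMSO (SD, n = 4 and 3), and the difference in normal score was 0.15 ± 0.41 (SE; limma adjusted p = 0.973). A normal score is the percentile placed on a normal curve, so that 1 unit is 1 SD of all ranked genes. Its end windows held 9, 8, 8 and 7 summits with pracinostat and 7, 1 and 6 with DMSO. The summit nearest the start lay between 18 bases before it and 444 after it. Inside the 250 printed bases, 6 of the 7 libraries had a summit.

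The heavy chains differed in rank within every library. H2-D1, at chr17:35263094-35267497 on the plus strand, had percentiles of 93.4, 82.1, 69.6 and 88.4 with pracinostat, against 82.2, 79.2 and 72.5 with DMSO. The groups overlapped, since pracinostat replicate 3 was the lowest of the 7. The normal-score difference was 0.26 ± 0.40 (limma adjusted p = 0.958). H2-K1, at chr17:33996012-34000619 on the minus strand, had percentiles of 57.5, 68.5, 35.4 and 33.2 with pracinostat, against 38.1, 62.6 and 65.2 with DMSO. It spread across the middle of the ranking in both groups, with overlap, and the difference was −0.17 ± 0.36 (limma adjusted p = 0.969). H2-D1 was above H2-K1 in 7 of 7 libraries, by 7.22 to 55.1 percentile points with a median of 34.2. H2-D1 had 6, 5, 5 and 6 end summits with pracinostat and 4, 2 and 4 with DMSO, while H2-K1 had 1, 1, 1 and 2 with pracinostat and 2, 1 and 2 with DMSO. The H2-K1 summits nearest that start lay 31 to 236 bases before it, inside the printed promoter and inside the gene span in all 7 libraries. NOD mice carry another MHC haplotype than the C57BL/6 mouse behind mm10, and class I genes have near-identical relatives, so the split of reads between heavy chains is uncertain and its part in this gap was not tested.

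**Figure D1:**
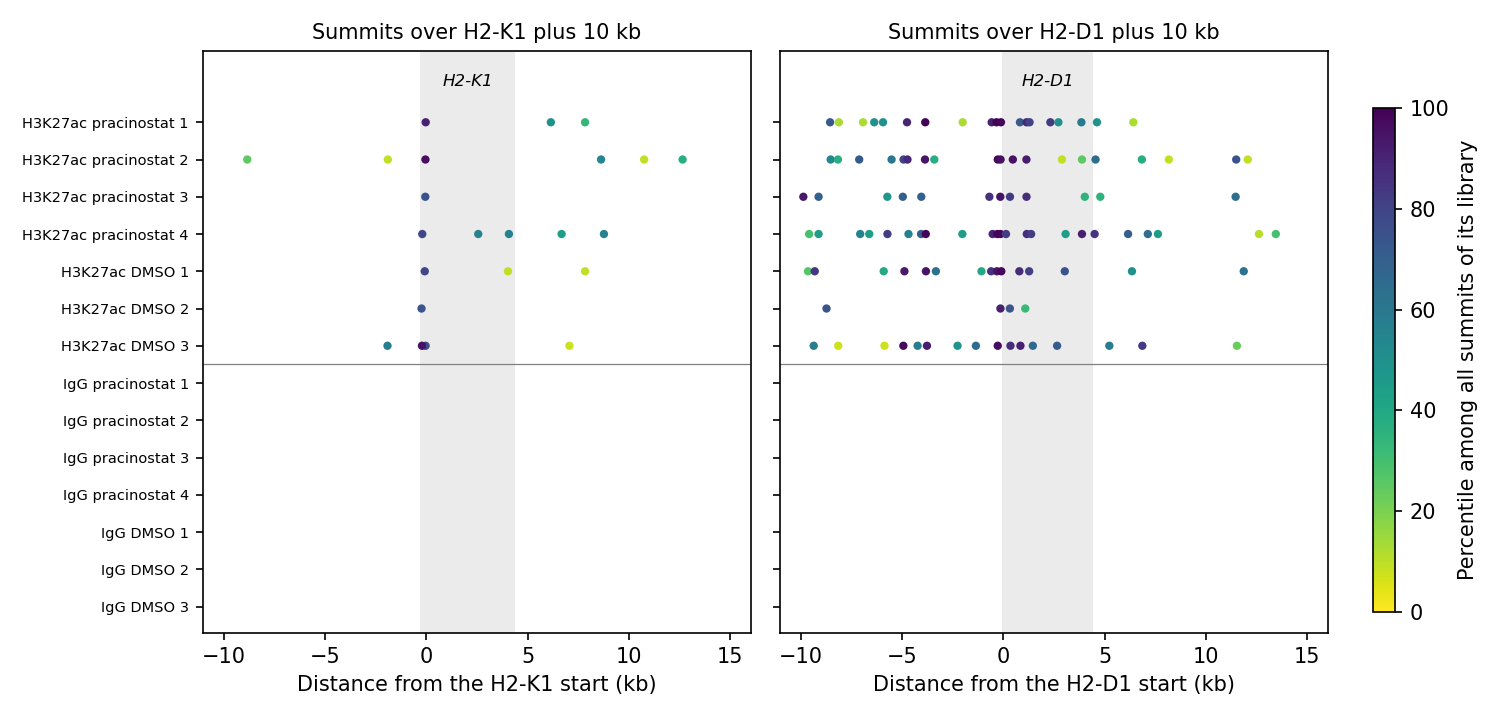
H3K27ac and IgG summits over H2-D1 and H2-K1 plus 10 kb on each side. The x axis is the distance from the gene start in kb, each row is 1 library, and colour is the percentile of the summit's score among all summits of its library; H2-K1 held 1 to 6 summits per H3K27ac library and H2-D1 held 4 to 23, while no IgG summit lay in either window.

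The Tap and immunoproteasome genes sit side by side in the MHC class II region of chromosome 17 and share windows. Psmb9 (34182030 to 34187330, minus strand) and Tap1 (34187556 to 34197225, plus strand) start 226 bases apart, and in all 7 libraries both genes took the same summit. They are therefore 1 measurement. Its percentiles were 86.5, 74.3, 87.5 and 83.7 with pracinostat, against 97.7, 62.6 and 83.1 with DMSO. DMSO held both the highest and the lowest value, so the groups overlapped. The mean percentile was 83.0 ± 6.02 with pracinostat and 81.1 ± 17.6 with DMSO, whereas the normal-score difference was −0.12 ± 0.41 (limma adjusted p = 0.978), so the sign differed between the scales. Without DMSO replicate 1 the normal-score difference was 0.33, and without DMSO replicate 2 it was −0.50.

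Psmb8, the other immunoproteasome subunit of the cluster, starts 970 bases beyond the far end of Tap1 (34198195 to 34201454, plus strand), and those end windows overlap. Its percentiles were 72.9, 71.5, 96.3 and 85.0 with pracinostat, against 93.7, 95.1 and 45.0 with DMSO. DMSO replicate 3 was the lowest of the 7 by a wide gap, and the other DMSO libraries were near the top. The difference was −0.02 ± 0.43 (limma adjusted p = 0.999), while the mean percentile was 81.4 ± 11.6 with pracinostat and 77.9 ± 28.5 with DMSO. The sign turned in 4 of the 7 fits that left out 1 library, which ranged from −0.59 without DMSO replicate 3 to 0.30 without DMSO replicate 2.

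Tap2, the partner chain of Tap1 (34204479 to 34216321), stood lower. Its percentiles were 54.5, 37.8, 63.7 and 75.4 with pracinostat, against 67.5, 72.3 and 54.7 with DMSO. Both groups were spread around the upper middle of the ranking and overlapped, with a difference of −0.18 ± 0.37 (limma adjusted p = 0.967). Its ends share no window with those of Tap1 or Psmb8, the nearest of which is 3025 bases away.

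**Figure D2:**
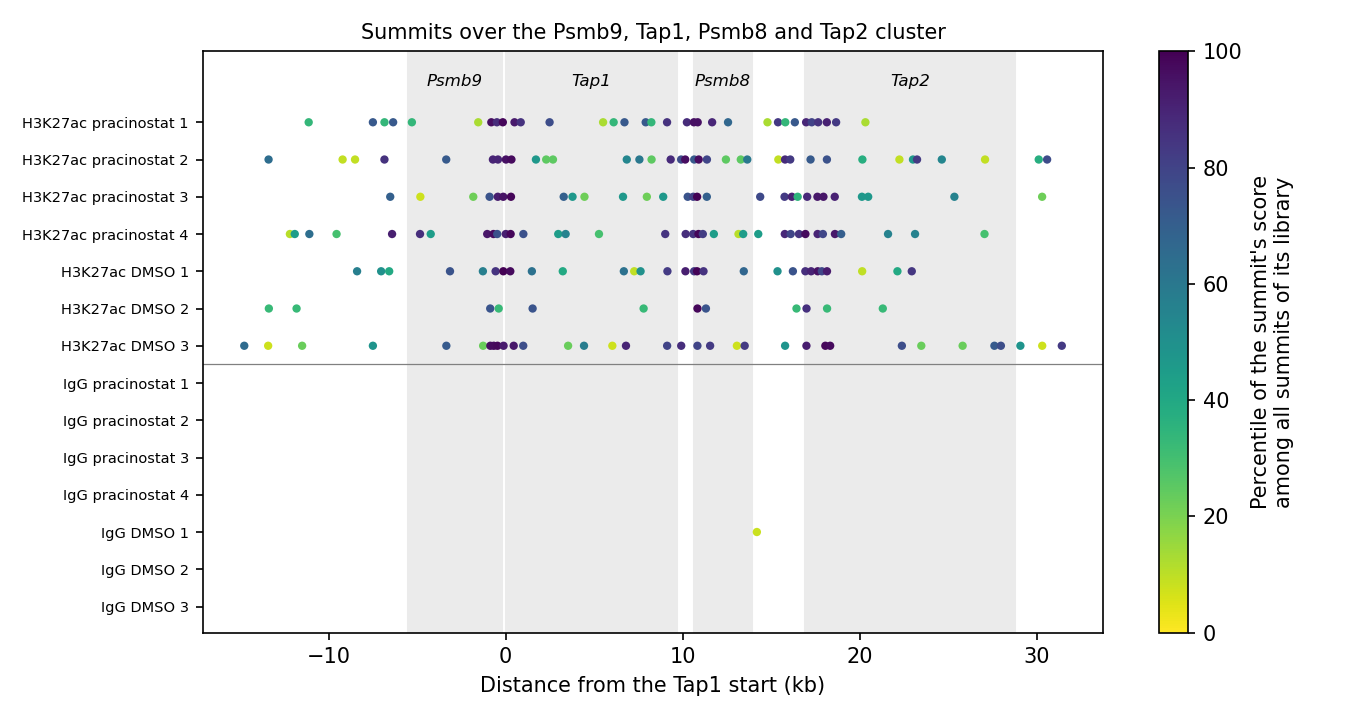
Summits over the Psmb9, Tap1, Psmb8 and Tap2 cluster in the 14 libraries. The x axis is the distance from the Tap1 start in kb and each row is 1 library. Colour is the percentile of the summit's score among all summits of that library. High-ranking summits gather near the shared start of Tap1 and Psmb9. Within 1 kb of it the highest summit of both genes stood at percentile 74.0 to 99.8 on this scale. In this cluster 1 IgG library, DMSO replicate 1, had a summit.

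Tapbp, which bridges the transporter and the heavy chain during peptide loading, was the only one of the 10 genes whose groups did not overlap. It lies at chr17:33919478-33929290 on the plus strand. Its percentiles were 92.2, 89.1, 93.5 and 91.9 with pracinostat, against 88.6, 84.6 and 70.7 with DMSO. Every pracinostat library was above every DMSO library, though DMSO replicate 1 was within 1 percentile point of pracinostat replicate 2. The means were 91.7 ± 1.86 with pracinostat and 81.3 ± 9.41 with DMSO, and the difference was 0.47 ± 0.40 (limma unadjusted p = 0.253, adjusted p = 0.901). Groups did not overlap for 6.67% of all ranked genes, 2.88% with pracinostat higher. In the fit, the difference was 0.28 without DMSO replicate 3, its lowest library, 0.52 without DMSO replicate 2 and 0.61 without DMSO replicate 1. With windows of 500 bp it was 0.755 (limma adjusted p = 0.896). Tapbp shares its start window with Zbtb22, whose nearest end is 153 bases away, and its far end with Rgl2, 224 bases away, so the signal may belong to either neighbour as well.

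Erap1, the aminopeptidase that trims peptides to the length class I binds, is at chr13:74639573-74693205 on the plus strand, and its far end shares a window with Cast, 839 bases away. Its percentiles were 78.7, 46.7, 81.4 and 45.4 with pracinostat, against 81.4, 47.3 and 75.6 with DMSO. Values fell into a high set of 75.6 to 81.4 and a low set of 45.4 to 47.3, and each set held libraries of both groups. The only DMSO library in the low set was replicate 2. Its Erap1 summit had the lowest score of that library, shared by 65.3% of its summits. The difference was −0.13 ± 0.39 (limma adjusted p = 0.974), and its sign turned in 3 of 7 fits without 1 library. Of its highest summits, the lowest stood at percentile 32.6 and the highest at 98.0 among all summits of their libraries.

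Nlrc5, the class I transactivator, is at chr8:94434335-94527272. It had end summits in 6 of the 7 H3K27ac libraries, with none in DMSO replicate 2. The percentiles were 51.4, 57.3, 43.7 and 54.0 with pracinostat, against 51.1, 19.0 and 68.8 with DMSO, where 19.0 is the tie of genes without a summit. The pracinostat values lay inside the range of the DMSO values. The difference was 0.16 ± 0.36 (limma adjusted p = 0.969) with DMSO replicate 2 and −0.22 without it. Its ends held 3, 4, 4 and 1 summits with pracinostat and 1, 0 and 2 with DMSO.

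**Figure D3:**
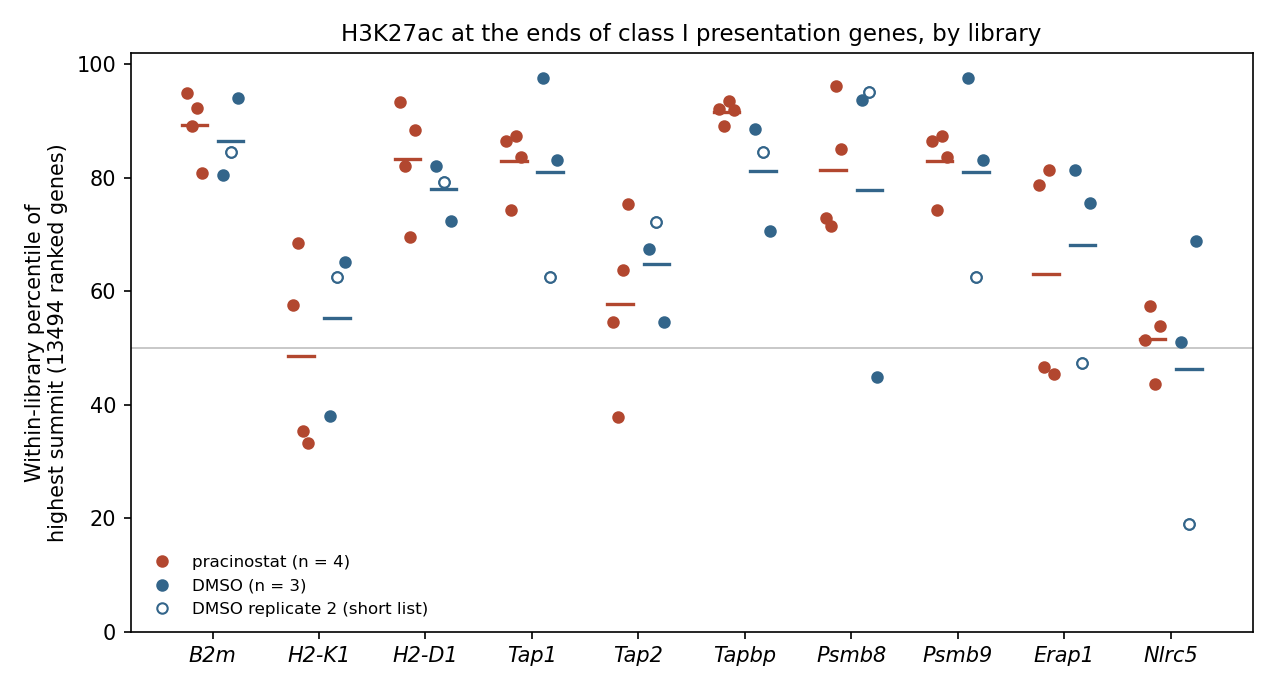
Percentile of each gene's highest end summit among the 13494 ranked genes of a library, for the 4 pracinostat and the 3 DMSO libraries. Each point is 1 library, bars are group means, and the open point is DMSO replicate 2; Tapbp is the gene whose points do not overlap between groups, and at Nlrc5 the open point, 19.0, is a library without a summit.

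By mean percentile the order with pracinostat was Tapbp, B2m, H2-D1, Tap1 with Psmb9, Psmb8, Erap1, Tap2, Nlrc5 and H2-K1. With DMSO it was B2m, Tapbp, Tap1 with Psmb9, H2-D1, Psmb8, Erap1, Tap2, H2-K1 and Nlrc5. In neither group was the gap between neighbours in this order larger than the larger of their SDs. B2m, H2-D1, Tap1, Tapbp and Psmb9 were above percentile 50 in all 7 libraries, and 22.8% of all ranked genes were. The widest gap in the pracinostat order, 18.4 points, fell between Psmb8 and Erap1.

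To ask whether pracinostat altered the mark at these genes, all 13494 ranked genes were fitted together with limma. None of the 10 passed an adjusted p of 0.05, and 0% of all ranked genes did. None of the 10 reached an unadjusted p under 0.05 either, against 832 genes or 6.17%. By normal score 4 genes were higher with pracinostat (Tapbp, H2-D1, Nlrc5 and B2m) and 6 lower, with a median difference of −0.07, beside −0.01 over all ranked genes, of which 48.6% were higher. By mean percentile 7 were higher and 3 lower, since Tap1, Psmb9 and Psmb8 changed sign between the scales. Both counts take Tap1 and Psmb9, which are 1 measurement, as 2 genes. The differences ran from −0.18 to 0.47, and each SE was 0.36 to 0.43. Across both windows and every alternative, the adjusted p of the 10 genes was between 0.716 and 1. In the same comparison 5 of the 6 ranked neutrophil markers were lower with pracinostat. Of these, 3 (Cxcr2, Padi4 and Camp) had an unadjusted p under 0.05 in limma. In the heavily tied DMSO replicate 2 they stood at percentile 62.6, 47.3 and 62.6. Camp was at or below 19.0 in the other DMSO libraries, while Cxcr2 was higher in every DMSO library than in any pracinostat library. How far these p-values rest on DMSO replicate 2 was not tested. Among macrophage and microglia markers 12 of 13 were higher with pracinostat, 1 of them with an unadjusted p under 0.05 in limma. A change shared by all sites of a library would not show in ranks. In simulated data the fit called 1 of 100 genes moved by 1 unit of normal score, so a change of that size could go uncalled. The moved genes had a mean normal score less than 1 unit from the middle, so genes near the top of the ranking were not among them.

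**Figure D4:**
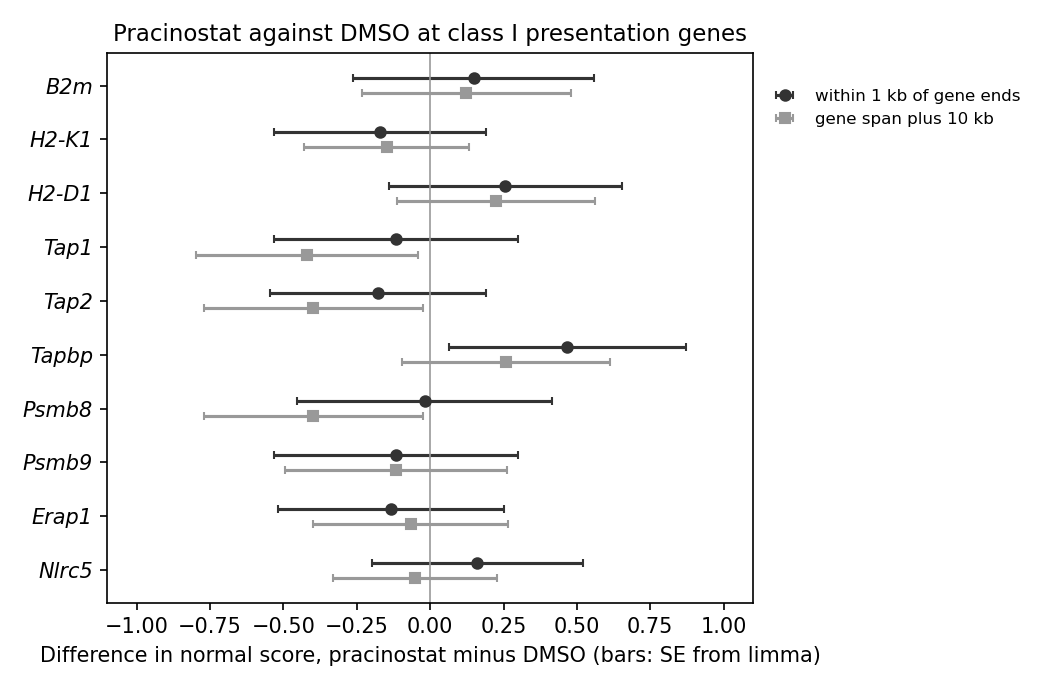
Difference in normal score between pracinostat and DMSO for each gene, at the gene ends and over the gene span plus 10 kb. Points are the limma estimates from 4 pracinostat and 3 DMSO libraries and bars are 1 SE; the end estimates run from −0.18 for Tap2 to 0.47 for Tapbp.

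Over the gene span plus 10 kb on each side, 18082 genes were ranked, 0% of them passed an adjusted p of 0.05 and 5.99% an unadjusted p under 0.05. None of the 10 genes passed either, and the groups overlapped for all 10, while they did not for 6.39% of genes. Tap1 had span percentiles of 80.7, 68.7, 94.0 and 79.0 with pracinostat, against 96.5, 93.1 and 77.5 with DMSO. The groups overlapped, and the difference of −0.42 ± 0.38 was the lowest of the 10 (limma adjusted p = 0.908). Tap2 and Psmb8 took the same summit in this window, at 65.1, 65.5, 94.0 and 79.0 with pracinostat, against 91.3, 93.1 and 76.2 with DMSO. Their difference was −0.40 ± 0.37 (limma adjusted p = 0.909), also with overlap. Tapbp, at 0.26 ± 0.36, had overlapping groups in this window, since DMSO replicate 1 had a span percentile of 92.9 against a highest pracinostat value of 90.2. Over this window 3 of the 10 genes were higher with pracinostat and 7 lower, with a median of −0.09, beside −0.01 over all genes. The 7 include Tap2 and Psmb8, whose values were the same, and Tap1, which shared them in some libraries. For Tap1 the sign depended on the flanks, with a difference of 0.36 when the gene body alone was used.

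Within the gene span plus 10 kb lay 44 consensus regions, which are merged summits of the 30000 highest-scoring of each library. Of these, 38 had a summit in at least 3 of the 7 full lists and were ranked among 48281 regions. None of the 38 passed an adjusted p of 0.05, against 0.00414% of all regions, and none an unadjusted p under 0.05, against 5.15%. With pracinostat 20 were higher and 18 lower. A summit in all 7 full lists was found at 14 of the 44, against 23.1% of 60369 regions. The groups did not overlap at 1 of them, the Tapbp start region chr17:33919028-33920658, against 6.38% of all regions and 3.33% with pracinostat higher. It had percentiles of 96.6, 96.1, 97.2 and 96.5 with pracinostat, against 95.7, 93.8 and 84.5 with DMSO, with a difference of 0.40 ± 0.41 (limma adjusted p = 0.904). All 7 values placed this region high, and the DMSO values spread more.

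The 3 regions with the smallest p in each direction were also within their spread. The lowest p belonged to a region 5676 bases below the lower-coordinate end of Nlrc5, chr8:94428392-94428926, which had percentiles of 23.1, 66.5, 38.2 and 88.7 with pracinostat, against 34.7, 25.1 and 10.1 with DMSO (difference 0.93 ± 0.53, limma adjusted p = 0.892). It had a summit in 4 of 4 pracinostat and 1 of 3 DMSO libraries. A region 3814 bases upstream of the H2-D1 start, chr17:35258982-35259579, had 96.9, 80.2, 41.6 and 95.3 with pracinostat, against 83.1, 25.1 and 68.5 with DMSO (difference 0.79 ± 0.47); without DMSO replicate 2, which had no summit there, the difference was 0.32. In both regions pracinostat replicates 1 to 4 were spread widely and the groups overlapped. The other region higher with pracinostat was inside Tapbp (chr17:33920731-33921231, 0.74 ± 0.56). Regions lower with pracinostat were inside Tap1 (chr17:34188825-34189325, −0.90 ± 0.54), at the Erap1 start (chr13:74639617-74640491, −0.66 ± 0.47) and upstream of Tapbp (chr17:33911758-33912258, −0.72 ± 0.56). Summits in the Tap1 region were few, in 1 of 4 pracinostat and 2 of 3 DMSO libraries, and its difference was −0.39 without DMSO replicate 2 and −1.40 without DMSO replicate 3. With each library left out in turn the Nlrc5 region ranged from 0.576 to 1.23, the H2-D1 region from 0.322 to 1.2 and the region inside Tapbp from 0.435 to 1.13. The Erap1 region ranged from −1 to −0.396 and the region upstream of Tapbp from −1.04 to −0.465.

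Near the 3′ end of H2-D1, the region chr17:35266728-35267228 had a summit in 4 of 4 pracinostat and 0 of 3 DMSO libraries, a pattern found at 0.77% of all consensus regions; none of the 44 showed the reverse, found at 0.29%. It is named here because its presence followed the groups and was chosen after its values were seen. Its percentiles were 31.6, 18.4, 28.4 and 64.2 with pracinostat, against 10.0, 25.1 and 10.1 with DMSO, which are the ties of regions without a summit. The groups overlapped through the long tie of DMSO replicate 2, and the difference was 0.68 ± 0.56 (limma unadjusted p = 0.226, adjusted p = 0.892). In the full 1 kb window at this 3′ end, H2-D1 had 2 summits in each pracinostat library and 0, 0 and 1 in the DMSO libraries.

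**Figure D5:**
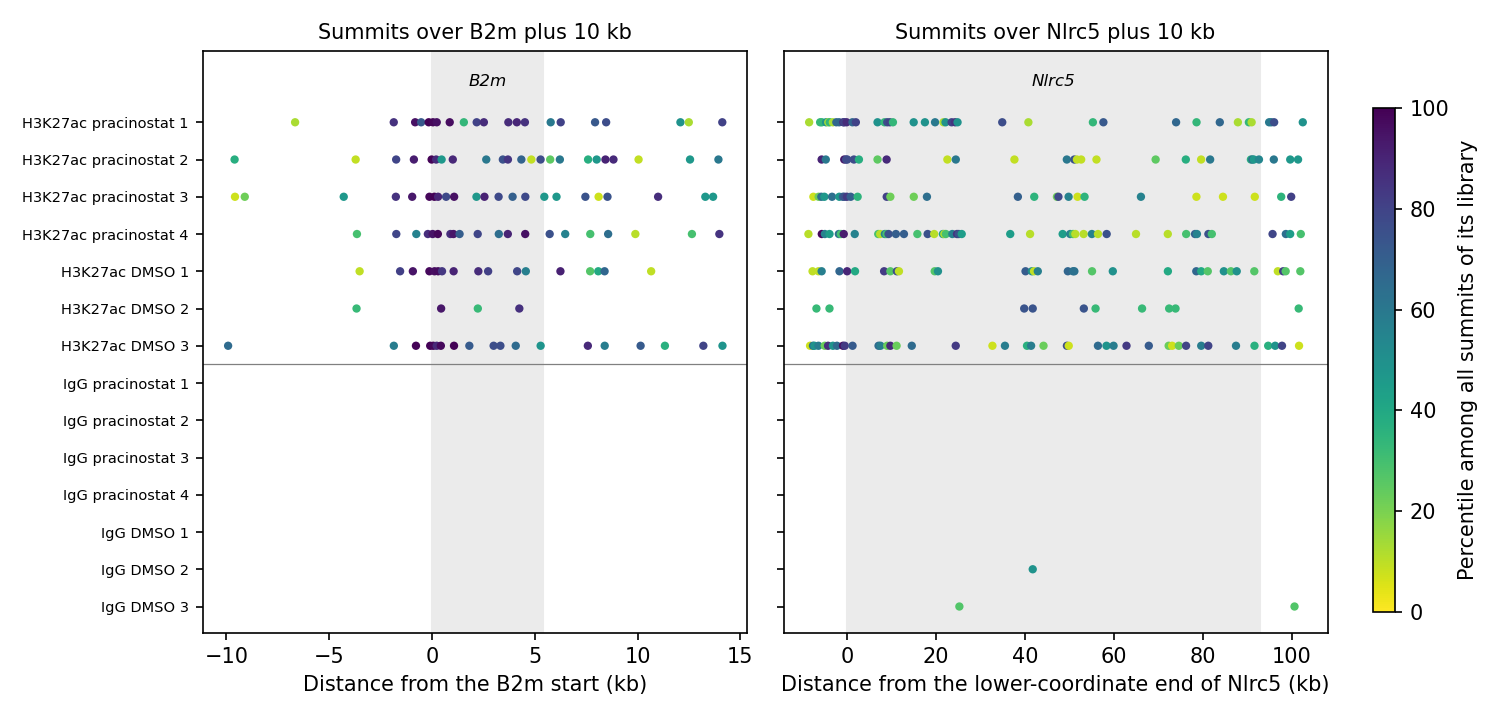
Summits over B2m and Nlrc5 plus 10 kb on each side in the 14 libraries. The x axis is the distance in kb from the B2m start or from the lower-coordinate end of Nlrc5, each row is 1 library and colour is the percentile of the summit's score among all summits of that library; B2m held 4 to 23 summits per H3K27ac library and Nlrc5 10 to 46, and 2 IgG libraries had summits over Nlrc5.

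Where the start of a gene is known, the mark was stronger there than at the 3′ end. The gene body and flanks were not in this comparison. For all 8 such genes the 5′ end held the higher-scoring summit in 7 of 7 H3K27ac libraries. The share of all genes with this pattern was not taken, so the count is not read as particular to these genes. The 3′ window of Tap1 overlaps that of the Psmb8 start, so its summits may belong to Psmb8. A 3′ end summit was present in 7 libraries for Tapbp, 6 for B2m, Tap1 and Psmb8, 5 for H2-D1, 3 for Psmb9, 2 for H2-K1 and 1 for Erap1. Among all summits of a library, the highest end summit stood at percentile 94.0 to 99.6 for B2m, 94.0 to 99.4 for Tapbp and 91.1 to 99.4 for H2-D1, against 74.0 to 96.3 for H2-K1.

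Summit density, which does not use the score, also varied among the genes. The median over the 7 H3K27ac libraries was 10.7 summits per 10 kb of span and flanks at Tapbp, 9.03 at Psmb8, 8.76 at Tap1 and 7.88 at B2m, beside 2.05 for the median ranked gene and 6.35 at the 90th percentile. H2-D1 had 6.56, Psmb9 6.32 and Tap2 5.65. Nlrc5 had 2.92, and H2-K1 and Erap1, at 1.22 and 1.09, were below the median gene. Tapbp was denser than 99.1% of ranked genes. Neighbouring genes add to these counts, since Tapbp, Tap1 and Psmb8 lie among other genes.

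Few IgG summits lay at the ends of these genes, and the IgG lists were also far shorter than the H3K27ac lists. In all 7 H3K27ac libraries a summit lay at an end of 9 of the 10 genes, against 34.7% of protein-coding genes. Tap1 and Psmb9, with the same highest summit, both count among the 9. None had an end summit in all 4 pracinostat and no DMSO library, or in all 3 DMSO and no pracinostat library, patterns found at 0.329% and 0.0228% of genes. When the windows were moved by 100 kb, 3 of 10 held a summit in all 7, against 8.39% of genes. The 3 were Tap1, Tap2 and Psmb9, neighbours in 1 cluster, so they are not independent places. IgG summits lay at the ends of 2 genes, Psmb8 in IgG DMSO replicate 1 and Erap1 in IgG DMSO replicate 2, each near the 3′ end, and at an end of 8.68% of all genes. No IgG pracinostat library had one at any of the 10. Over the span plus 10 kb, all 10 genes had a summit in all 7 H3K27ac libraries, against 61.6% of genes, and 6 had one in at least 1 IgG library, against 58.9%.

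Peptide supply and loading beyond the 10 genes was read from a list of 20 genes, of which 20 were ranked. None passed an adjusted p of 0.05 in limma, against 0% of all genes, 2 of 20 had an unadjusted p under 0.05, against 6.17% of all ranked genes, and by normal score 4 were higher with pracinostat and 16 lower, while 48.6% of all ranked genes were higher. The median difference was −0.23, beside −0.01 over all genes. Calr, the calreticulin chaperone of the loading complex, averaged 86.4 ± 15.5 with pracinostat and 77.0 ± 12.8 with DMSO, and Lnpep, an aminopeptidase of cross-presentation, 98.5 ± 0.839 with pracinostat and 97.2 ± 1.45 with DMSO. Both were within the spread of the libraries. Sec61a1, the pore subunit through which proteins enter the endoplasmic reticulum, averaged 64.7 ± 28.1 with pracinostat and 92.7 ± 7.01 with DMSO, a difference of −0.94 ± 0.45 (limma unadjusted p = 0.044, adjusted p = 0.809). Ide, the insulin-degrading enzyme, averaged 11.1 ± 12.99 with pracinostat and 34.2 ± 12.3 with DMSO (difference −0.97 ± 0.38, limma unadjusted p = 0.0126, adjusted p = 0.776). It had a summit in 4 of the 7 libraries. The third immunoproteasome subunit, Psmb10, averaged 50.4 ± 11.5 with pracinostat and 58.9 ± 23.7 with DMSO. Psme2, a subunit of the interferon-induced proteasome activator, stood higher in both groups, at 96.9 ± 2.40 with pracinostat and 96.0 ± 3.84 with DMSO.

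Of 19 other class I and class I-like heavy chains, 18 were in the gene table and 11 were ranked. None passed an adjusted p of 0.05 in limma and 1 of 11 had an unadjusted p under 0.05, against 6.17% of all ranked genes. By normal score 6 were higher and 5 lower, with a median of 0.13, beside 48.6% higher and a median of −0.01 over all ranked genes. Mr1, which presents vitamin B metabolites, averaged 61.1 ± 18.5 with pracinostat and 43.1 ± 23.2 with DMSO, and the Qa-region gene H2-Q6 averaged 50.8 ± 24.8 with pracinostat and 32.5 ± 13.1 with DMSO. The lowest differences were those of H2-Q1 (7.50 ± 5.66 with pracinostat and 27.2 ± 11.1 with DMSO; −0.88 ± 0.36, limma adjusted p = 0.777) and H2-M2 (19.8 ± 14.6 with pracinostat and 36.7 ± 10.4 with DMSO). H2-Q1 had a summit in 3 libraries only. H2-T22, H2-M9 and Cd1d1 had none in any H3K27ac library.

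Of 29 regulators of class I genes, 27 were ranked. None passed an adjusted p of 0.05 in limma and 1 of 27 had an unadjusted p under 0.05, the share over all ranked genes being 6.17%. By normal score 10 were higher and 17 lower, with a median of −0.07, beside the same 48.6% and −0.01 over all ranked genes. Irf9, the DNA-binding part of the type I interferon complex, had 97.6, 99.7, 86.4 and 80.8 with pracinostat, against 82.2, 72.3 and 78.3 with DMSO. Pracinostat replicate 4 lay below DMSO replicate 1, so the groups overlapped, and the difference was 0.90 ± 0.44 (limma unadjusted p = 0.0441, adjusted p = 0.809). Ifngr1, a chain of the interferon gamma receptor, averaged 99.3 ± 0.759 with pracinostat and 95.8 ± 3.80 with DMSO. The lowest differences were those of Stat2, the Irf9 partner, at 76.1 ± 13.3 with pracinostat and 88.0 ± 4.65 with DMSO, and of Ptpn2, a phosphatase that limits interferon signalling, at 51.5 ± 12.2 with pracinostat and 66.7 ± 16.9 with DMSO. Irf1 averaged 68.8 ± 16.2 with pracinostat and 81.6 ± 2.18 with DMSO, a difference within the spread of the pracinostat libraries.

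The genes whose end scores followed B2m most closely across the 7 H3K27ac libraries were Gm12250, 9130019O22Rik and Tmf1, with Pearson r of 0.980, 0.978 and 0.968 in that order. For Nlrc5 they were Cyp20a1, Lrpprc and Zfp953, at 0.983, 0.982 and 0.969. These are the highest of 13494 genes over 7 points that share their libraries, and they are given as a description.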

How the data were processed

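Each of the 14 libraries had 1 deposited list of peak summits, single bases with a −log10 significance value from the authors' peak caller. The submitters' processing notes list MACS2 2.2.9.1, Bowtie2, HOMER and DESeq2, and mm10 as the build. What each tool did and the calling threshold are matters not given in the sources used here, nor is it stated if the authors' −log10 values come from p or q. Peaks had been called library by library, since every list covers 1. Read numbers are likewise not given, and the length of a list is the only sign of depth.

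Gene positions came from the RefSeq table of the assembly that mm10 names. A gene took its highest score within 1 kb of either end, or over its span plus 10 kb. Ranking within a library took the genes that had a summit in 3 or more of the 7 H3K27ac libraries, with a tie at the bottom for those lacking one there. Consensus regions were the 30000 highest summits per library, extended by 250 bp and merged. Ranks, as normal scores, were compared with limma 3.58.1 (trended, robust variance), statmod 1.5.0 and R 4.3.3, with Benjamini-Hochberg adjustment over the whole table. The step was tested on simulated data, where 100 features were moved by 1 unit of normal score and 100 by 2 units. All were drawn from features whose mean normal score lay less than 1 unit from the middle of the ranking. At gene ends 1 of the 100 moved by 1 unit and 55 of those moved by 2 units were called in the right direction. Over the span these were 5 and 69, and among regions 0 and 1. Changes of 1 unit would therefore mostly go uncalled. IgG libraries were not in the fits. The members, lists and alternatives were chosen with earlier results of these data known. The text names all 10 members, in each pathway list the 2 largest rises and 2 largest falls, the 3 regions with the smallest p per direction, and the 3 genes most like B2m and Nlrc5; Psmb10, Psme2, Irf1 and the H2-D1 3′ region were added after their values were seen. The list gene Nrdc was found as Nrd1. The samples are biological replicates per the labels, with no animal named for any of them, so a p-value speaks of the spread among these libraries. Alternatives were each library left out, the replicate number as a block, list length as a covariate, 30000 highest summits, other windows and filters, and regions from 500 bp extensions.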

Additional observations from a re-analysis of the deposited data

Results flagged for a closer look

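In 2 of the 38 groups of 4 pracinostat libraries examined, 1 library lay far from the other 3, a share that chance gives in about 1 in 20. Ide had a percentile of 30.5 in pracinostat replicate 2, against 3.42 to 5.23 in the others, which are values of genes with no summit; the gap was 0.933 of the range. H2-Q1 had 15.9 in pracinostat replicate 4, the only pracinostat library with a summit there, and the gap was 0.874 of the range.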

How the results depend on the processing

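Of 479 alternative values of 38 results (the 10 genes in both windows, 12 pathway-list genes and 6 regions), 448 kept their direction, 31 reversed and 0 crossed the threshold; of those 12 list genes and 6 regions none reversed. Psmb10, Psme2, Irf1 and the H2-D1 3′ region had no alternatives run. The cause of the reversals was not tested. At gene ends, Psmb8 was 0.36 with list length as a covariate, 0.148 with the 30000 highest summits and 0.0102 with 500 bp windows. Nlrc5 was −0.232, −0.125 and −0.238 under the same 3 settings. Without the 10 kb flanks the span value was −0.244 for B2m, 0.364 for Tap1, 0.0364 for Psmb8 and 0.0167 for Psmb9. With each library left out in turn, end values ranged from −0.5 to 0.333 for Tap1 and Psmb9, −0.591 to 0.298 for Psmb8, −0.42 to 0.0598 for Erap1 and −0.219 to 0.466 for Nlrc5. Span values ranged from −0.0108 to 0.329 for B2m, −0.529 to 0.352 for Psmb9, −0.412 to 0.167 for Erap1 and −0.214 to 0.0612 for Nlrc5.

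Genes past an adjusted p of 0.05 at the ends were 0, and became 1 with the 30000 highest summits, 2 with 500 bp windows, 2 with a summit required in 1 library, and 0 to 4 with a library left out (1 without pracinostat replicate 2, 4 without DMSO replicate 3). Over the span they were 0, then 1 without flanks and 0 to 2 with a library left out (2 without DMSO replicate 3). Regions numbered 2, then 0 with list length as a covariate, 1 with the 30000 highest summits and 0 to 2 with a library left out (0 without pracinostat replicate 1 or 3 or DMSO replicate 2, 1 without pracinostat replicate 2 or DMSO replicate 3). With the 30000 highest summits, 5 in place of 9 of the 10 genes had an end summit in all 7 libraries, and 15.6% in place of 34.7% of all genes.

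Same-numbered libraries did not deviate together (r = −0.0544, 0.000524 and −0.0235), and differently numbered ones ran from −0.0489 to 0.0961. These values do not settle whether the replicate numbers pair the libraries. A fit with the replicate number as a replicate block gave 0 genes at the ends, 0 over the span and 1 region, and for Erap1 0.0299 at the ends and 0.0825 over the span.

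Depth limits these values most in DMSO replicate 2, whose list is short and heavily tied. Ranks are relative within a library. Shared windows do not separate Tap1 from Psmb9 and Psmb8, Tapbp from Zbtb22 and Rgl2, or Erap1 from Cast.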
